A study of Mus musculus with 4 samples.

Results

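The nuclear-encoded subunits of the mitochondrial respiratory chain and of ATP synthase were examined in bone marrow-derived dendritic cells that lack GOLPH2, a Golgi membrane protein encoded by Golm1. Members were the genes whose symbol begins with Nduf followed by a, b, c, s or v and a digit, with Uqcr, with Cox4 to Cox8 or with Atp5, without pseudogene symbols, plus Cyc1, Sdhc and Sdhd. This rule found 79 of the 15881 genes in the 2 deposited tables: 36 of complex I, 2 of complex II, 9 of complex III, 15 of complex IV and 17 of complex V. The table of unstimulated cells lists 78 of them and the table of stimulated cells all 79, with Ndufa4l2 in the latter alone. Both genes taken as markers of the group, Ndufa1 and Cox5a, are listed in each table.

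The cells came from C57BL/6 mice aged 8 weeks. The 4 groups were WT-con and KO-con, the unstimulated cells of wild type and of GOLPH2-/- mice, and WT-I+L and KO-I+L, cells of the same genotypes given IFN-gamma for 16 h and then LPS for 4 h. Each group was 1 library of strand-specific mRNA sequencing, so no ratio has a replicate check. The sources used here do not say whether cells of several mice were pooled; the titles and the design text set the untreated groups apart, while the treatment label is the same for all 4. The authors' deposited tables give, per gene, a ratio of KO over WT and a p-value, but no level per library. Values below are log2 ratios of KO over WT, taken relative to the point at which the authors' test gives no difference. Errors written as ± are the counting standard error (SE) that each deposited p-value implies. They cover the sampling of reads and not the spread between cultures, and none is given where the stored p-value is at its limit. A gene is termed called when the authors' deposited p-value, adjusted by Benjamini-Hochberg across its whole table, falls under 0.001. Sparsely read genes have deposited values that are log2 of whole-number ratios, such as 0.0 unstimulated and 1.0 stimulated for Cox4i2. The deposited scale therefore appears not to be adjusted for library depth. On the scale as deposited every unstimulated ratio is 0.19 higher and every stimulated one 0.04 lower. This turns the sign of values between these bounds and zero, which include the stimulated medians of complex II and of coenzyme Q synthesis and the unstimulated median of the regulators given below. Such a call compares 2 libraries, not 2 genotypes, and a difference in the RNA of 1 cell type cannot be told apart from a difference in the number of its cells.

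The respiratory chain passes electrons from NADH (complex I) and succinate (complex II) through coenzyme Q to complex III, then by cytochrome c to complex IV, which reduces oxygen. Complexes I, III and IV pump protons across the inner mitochondrial membrane, and complex V, ATP synthase, lets them flow back to make ATP. Most subunits are encoded in the nucleus, and a few core subunits by mitochondrial DNA. Dendritic cells are known to shift from respiration to glycolysis after strong Toll-like receptor stimulation, and nitric oxide and itaconate made by such cells inhibit respiratory enzymes. The subunits encoded by mitochondrial DNA were not analysed here.

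Promoters of the 4 members called higher in both states are shown first, since nuclear genes of the chain are known to be bound by NRF1, by ETS factors such as GABP and by YY1. Each is the 250 bases before the RefSeq transcription start (GRCm38.p6), 5′ to 3′ on the gene's strand, with matches to the searched motifs in capitals. Atp5l lies at chr9:44920743-44920992, minus strand, Cox6a1 at chr5:115348959-115349208, minus strand, Atp5e at chr2:174464102-174464351, minus strand and Atp5b at chr10:128083057-128083306, plus strand.
Atp5l: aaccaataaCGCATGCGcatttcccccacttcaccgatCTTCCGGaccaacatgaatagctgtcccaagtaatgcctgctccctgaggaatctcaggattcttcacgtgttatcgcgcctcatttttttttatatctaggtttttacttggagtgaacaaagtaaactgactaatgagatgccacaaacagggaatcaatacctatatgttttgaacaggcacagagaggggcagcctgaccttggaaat
Cox6a1: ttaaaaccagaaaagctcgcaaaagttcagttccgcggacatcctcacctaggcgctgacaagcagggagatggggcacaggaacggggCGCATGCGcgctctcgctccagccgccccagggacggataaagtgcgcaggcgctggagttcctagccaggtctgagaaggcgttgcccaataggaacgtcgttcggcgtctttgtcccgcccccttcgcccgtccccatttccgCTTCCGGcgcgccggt
Atp5e: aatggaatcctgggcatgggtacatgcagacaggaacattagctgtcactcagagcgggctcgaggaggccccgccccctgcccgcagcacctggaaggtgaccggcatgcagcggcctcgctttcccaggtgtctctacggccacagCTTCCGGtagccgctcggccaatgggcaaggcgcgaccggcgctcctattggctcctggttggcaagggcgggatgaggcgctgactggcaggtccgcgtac
Atp5b: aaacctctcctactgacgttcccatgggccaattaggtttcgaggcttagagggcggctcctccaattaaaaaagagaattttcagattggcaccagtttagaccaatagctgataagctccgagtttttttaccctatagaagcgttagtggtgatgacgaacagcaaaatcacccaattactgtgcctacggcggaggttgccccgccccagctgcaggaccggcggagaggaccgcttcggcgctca

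The letters searched on both strands were CGCATGCG for NRF1, CCGGAAG for ETS factors and AAGATGG for YY1; none of these contains another. In the stretches shown, Atp5l and Cox6a1 each held an NRF1 and an ETS match, Atp5e an ETS match, and Atp5b none of the 3. RefSeq windows of 300 bases, from 250 before to 50 after the start, were matched to 64 of the 79 members, and the 15 others were not searched. NRF1 letters were in windows of 9 of these 64 members (14.1%) and of 2.07% of all 27025 genes with windows. These 27025 genes were not limited to the genes tested in these cells. ETS letters were in 15 members (23.4%, against 9.93% of all genes) and YY1 letters in 12 (18.8%, against 7.28%). The 9 members with the NRF1 letters (Atp5g2, Atp5j, Atp5k, Atp5l, Cox6a1, Ndufa11, Ndufa8, Uqcr11 and Uqcrc1) had a median ratio of 0.11 in unstimulated cells, and the 55 without had one of 0.05. In stimulated cells these medians were 0.12 and 0.10. Members with ETS letters had medians of 0.08 before and 0.12 after stimulation, and those without 0.05 and 0.10. Members with YY1 letters had 0.05 and 0.14, and those without 0.06 and 0.10. A match of letters is a description of the sequence and not a bound site.

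The targeted gene was far lower in the KO library, with Golm1 at −2.09 in unstimulated cells, where its stored p-value is at the limit of the table, and at −2.0 ± 0.10 in stimulated cells.

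In unstimulated cells most subunits lay slightly above zero in the KO library. Of 78 members, 61 had a ratio above zero, and the median was 0.05, that is 3.67% above WT; the median of all genes tested was 0.00. Called higher were 6 members (7.69%), with ratios from 0.06 to 0.22, where 4.7% of all genes were called higher. No member was called lower, against 4.27% of all genes. The median counting error was 0.043 for members and 0.088 for all genes, so smaller ratios could be called among members. At an adjusted p under 0.05, 12 members were higher (15.4%; all genes 9.36%) and 0 lower (all genes 8.5%). The differences were small, since none of the 78 members reached 1.5-fold and the authors marked none of them as differentially expressed (1.05% of all genes were marked).

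After IFN-gamma and LPS the members lay further above zero on the centred scale; on the deposited scale their median was 0.07, against 0.24 in unstimulated cells, and the median of all genes −0.03 against 0.19. Of 79 members, 72 had a ratio above zero, with a median of 0.11, that is 7.86% above WT, where all genes had a median of 0.01. Called higher were 11 members (13.9%), where 5.36% of all genes were, and called lower were 0, where 6.54% of all genes were. The shares are not matched for precision, since the median counting error was 0.048 for members and 0.092 for all genes. At an adjusted p under 0.05, 31 members were higher (39.2%; all genes 10.2%) and 0 lower (all genes 11.7%). The members at 1.5-fold or more were 2, Cox4i2 and Cox6b2, both uncalled and poorly counted, and the authors marked no member (1.04% of all genes). The plot of precisely counted subunits shows the ratios by complex.

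**Figure D1:**
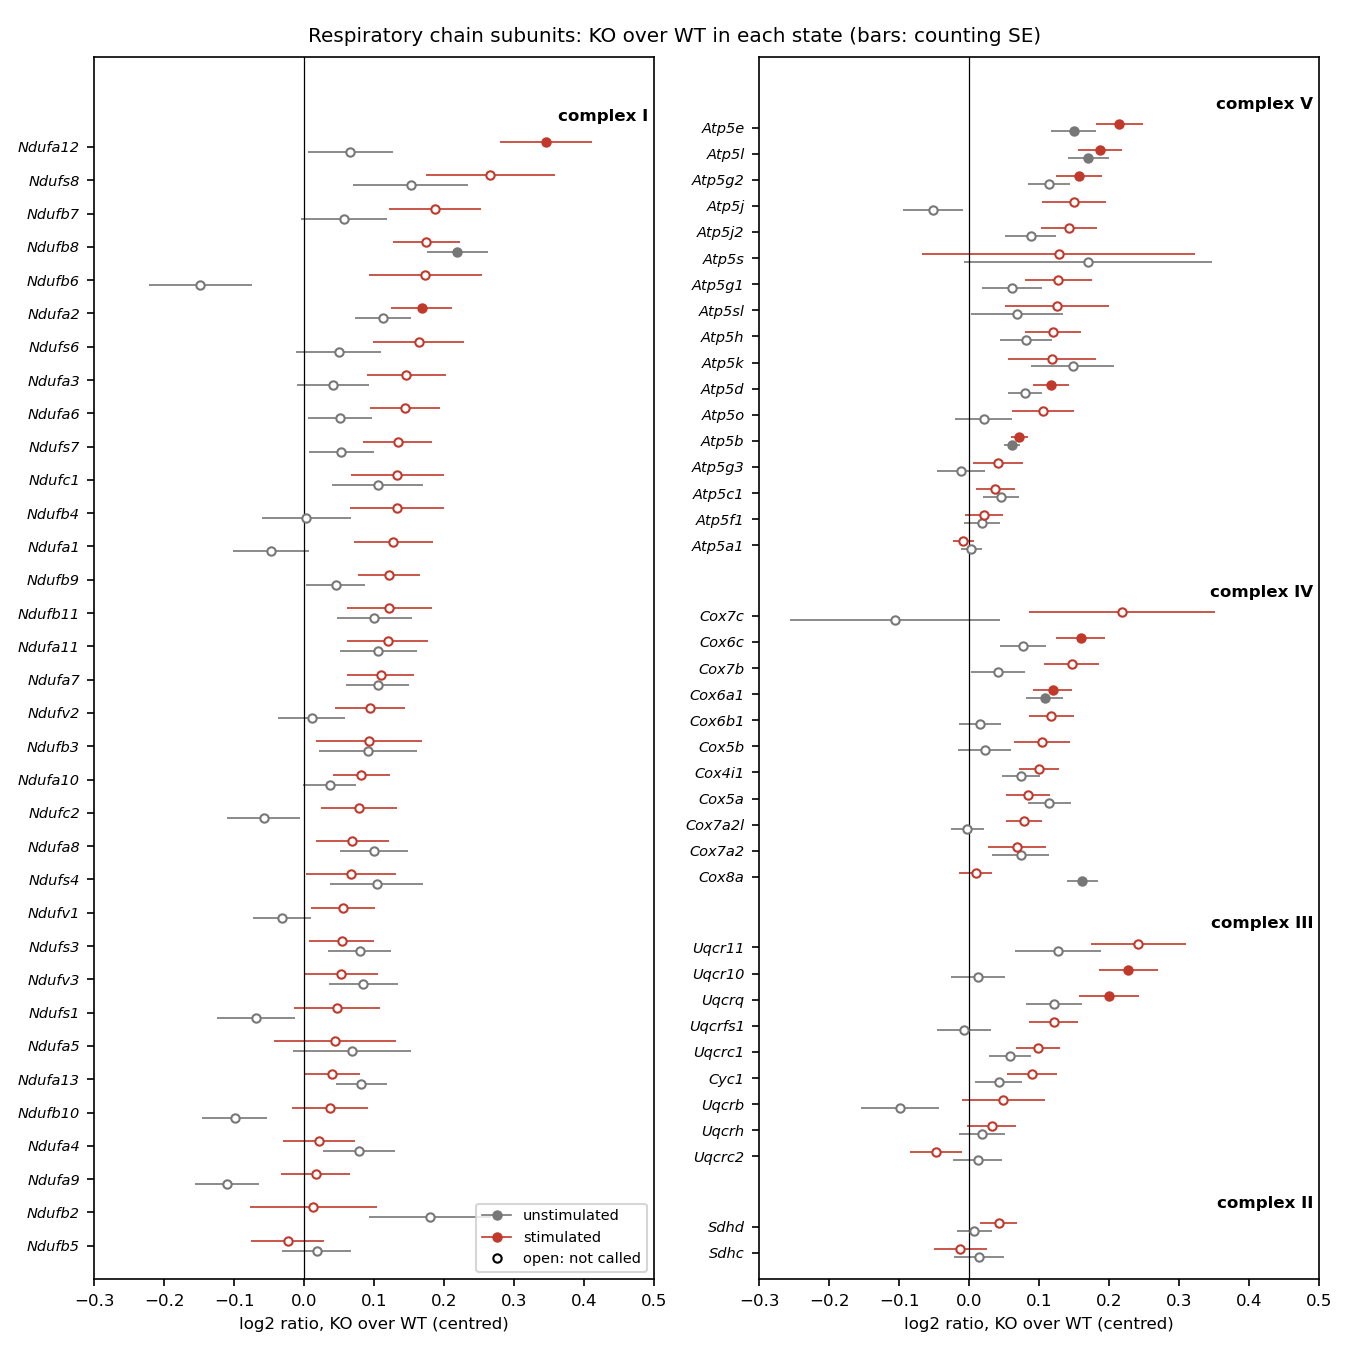
Log2 ratio of KO over WT for 73 of the 74 subunits that in both states are counted at least as precisely as a gene with 50 reads in every library, grouped by complex; bars are the counting SE, filled points are called, and each point is 1 KO library against 1 WT library. Stimulated cells (red) have 11 filled points and unstimulated cells (grey) 6, all to the right of zero.

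Ratios tended to fall with transcript length over all genes and over the members, weakly in unstimulated cells and more in stimulated ones. Members are short, with a median transcript length of 742 bases (321.5 to 2675.5) in GENCODE M21 against 2641 bases over all genes. Genes were divided at the quartiles of transcript length into 4 classes, and those with the counting error of 50 reads or less were compared. Outside the group, those of the shortest class had medians of 0.04 (unstimulated) and 0.07 (stimulated), and those of the longest class −0.03 and −0.08. The 64 members in the shortest class had medians of 0.06 and 0.12, and the 9 in the next class 0.04 and 0.05, where the other genes of that class had 0.01 and 0.02. In stimulated cells 96.9% of the 64 shortest members and 69.6% of the 2486 other genes of their class had a ratio above zero. In unstimulated cells these shares were 81.2% and 63.7%. The class runs up to 1693 bases in unstimulated and 1690 in stimulated cells, and members and other genes were not matched for length within it. Across the 74 precisely counted members, Spearman's rho between ratio and length was −0.14 in unstimulated and −0.39 in stimulated cells; across all genes counted as precisely it was −0.19 and −0.35. These genes share their libraries and are not independent, and the part of length in the ratios of the subunits was not tested.

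**Figure D2:**
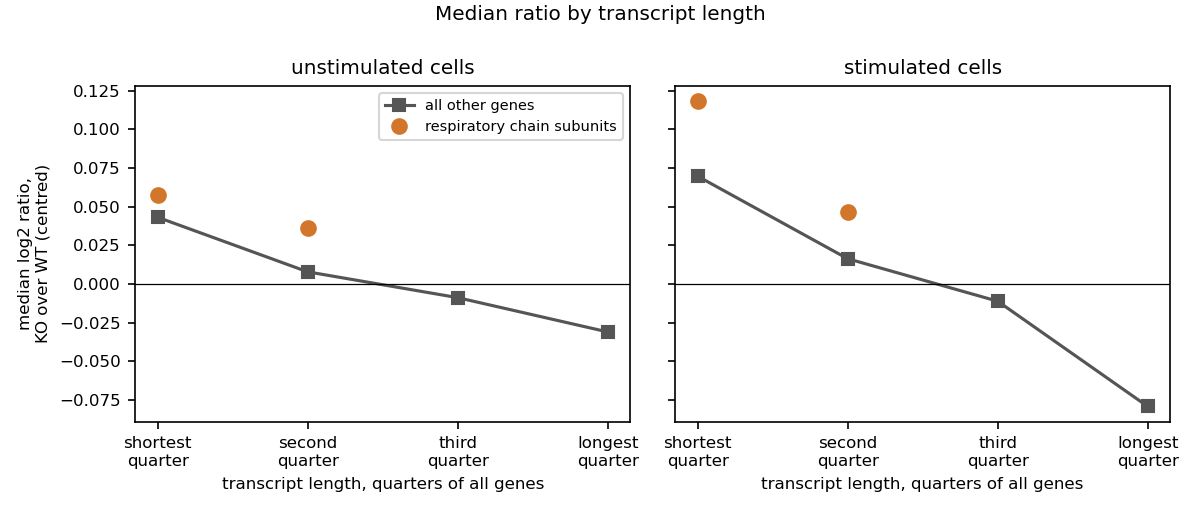
Median log2 ratio of KO over WT in 4 classes of transcript length, for all other genes (squares) and for respiratory chain subunits (circles, shown where a class holds at least 5 members), among genes with the counting error of 50 reads or less. Subunits in the shortest class lie at 0.06 in unstimulated and 0.12 in stimulated cells, above the squares at 0.04 and 0.07.

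Complex I, NADH dehydrogenase, had a median of 0.06 in unstimulated cells (35 members, 28 above zero, 1 called) and of 0.10 in stimulated cells (36 members, 34 above zero, 2 called). The calls were 2.86% and 5.56% of its members, where 4.7% and 5.36% of all genes were called higher. Ndufb8, an accessory subunit of the membrane arm, was at 0.22 ± 0.04 in unstimulated cells, the highest ratio of the complex there, and was called; in stimulated cells it was at 0.17 ± 0.05 and was not called. Ndufa12, an accessory subunit, was called in stimulated cells at 0.35 ± 0.07, or 127.0% of the WT level, the highest ratio of any precisely counted member. It was at 0.07 ± 0.06 in unstimulated cells. Ndufa2, another accessory subunit, was at 0.11 ± 0.04 and at 0.17 ± 0.04, with a call in stimulated cells. Ndufa1, a small membrane-arm subunit encoded on the X chromosome (37187588 to 37191163, GRCm38), was at −0.05 ± 0.05 in unstimulated and 0.13 ± 0.06 in stimulated cells, with no call. The lowest ratios were those of Ndufb6 in unstimulated cells (−0.15 ± 0.07) and Ndufb5 in stimulated cells (−0.02 ± 0.05), both accessory subunits of the membrane arm. The 7 nuclear-encoded core subunits, which carry the flavin and the iron-sulfur clusters or help bind the quinone, had none called in either state. Their medians were 0.02 and 0.06, and those of the 28 members taken as accessory subunits, Ndufa4 included, were 0.07 and 0.11. Ndufs8 was the highest core subunit, at 0.15 ± 0.08 and 0.27 ± 0.09. Ndufa4, placed here by its symbol but known as a subunit of complex IV, was at 0.08 ± 0.05 and 0.02 ± 0.05.

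Complex II, succinate dehydrogenase, had the medians closest to zero, 0.01 in both states. Sdhc and Sdhd, the membrane anchors that hold the quinone site, were at 0.01 ± 0.04 and 0.01 ± 0.02 in unstimulated cells. In stimulated cells Sdhc was at −0.01 ± 0.04 and Sdhd at 0.04 ± 0.03. Neither was called in either state. Of the catalytic subunits, which the symbol rule leaves out, the flavoprotein gene Sdha was at −0.02 ± 0.02 and 0.04 ± 0.02, and the iron-sulfur subunit gene Sdhb at 0.01 ± 0.04 and 0.18 ± 0.04, the last called higher.

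Complex III, cytochrome bc1, had a median of 0.02 in unstimulated cells, with 7 of 9 members above zero and none called, and of 0.10 in stimulated cells, with 8 of 9 above zero and 2 called (22.2%; all genes 5.36%). The called genes encode small supernumerary subunits. Uqcr10 was at 0.23 ± 0.04 in stimulated and 0.01 ± 0.04 in unstimulated cells, and Uqcrq at 0.20 ± 0.04 and 0.12 ± 0.04. Uqcr11, also a small subunit, had the highest ratio of the complex in both states (0.13 ± 0.06 and 0.24 ± 0.07) without a call. The nuclear-encoded subunits that carry redox centres are Cyc1 (cytochrome c1) and Uqcrfs1 (the Rieske iron-sulfur protein). In that order they were at 0.04 ± 0.03 and −0.01 ± 0.04 in unstimulated and at 0.09 ± 0.04 and 0.12 ± 0.04 in stimulated cells. Uqcrb, a small subunit, was lowest in unstimulated cells (−0.10 ± 0.06), and the core protein gene Uqcrc2 lowest in stimulated cells (−0.05 ± 0.04).

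Complex IV, cytochrome c oxidase, had a median of 0.02 in unstimulated cells (9 of 15 members above zero) and of 0.10 in stimulated cells (13 of 15 above zero). In each state 2 members were called higher (13.3%), where 4.7% and 5.36% of all genes were. The unstimulated median was 0.07 over the 11 members counted at least as precisely as 50 reads, since 4 isoform genes with few reads lay below zero. Cox6a1, the widely expressed form of subunit VIa (chromosome 5, 115345642 to 115348981, GRCm38), was called in both states at 0.11 ± 0.03 and 0.12 ± 0.03. Cox8a, a small subunit, was called in unstimulated cells at 0.16 ± 0.02 and lay at 0.01 ± 0.02 in stimulated cells. Cox6c, another small subunit, was at 0.08 ± 0.03 and at 0.16 ± 0.04, with a call in stimulated cells. Cox5a, a nuclear subunit on the matrix side (chromosome 9, 57521274 to 57532426), was at 0.11 ± 0.03 and 0.08 ± 0.03, not called. Cox7c had the lowest precise ratio in unstimulated cells (−0.11 ± 0.15) and the highest in stimulated cells (0.22 ± 0.13), with an error several times that of its neighbours. Cox7a2l, which joins complexes III and IV into supercomplexes and is not a subunit of either alone, was at 0.00 ± 0.02 and 0.08 ± 0.03.

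The isoforms known from muscle, lung or testis were too sparsely read to compare. Cox6a2, the muscle form of subunit VIa, was at −0.34 ± 0.30 and 0.24 ± 0.32, and Cox7a1, the muscle form of subunit VIIa, at −0.33 ± 0.45 and −0.19 ± 0.57. Cox6b2, the testis form of subunit VIb, was at −0.50 ± 0.36 and −0.89 ± 0.39. Cox4i2, the lung form of subunit IV, had errors of 1.44 and 1.72, close to the 2.04 that 1 read in each library gives. Ndufa4l2, a paralog of Ndufa4 known as a hypoxia target, was at 0.36 ± 0.68 in stimulated cells.

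Complex V had the most called members, 3 of 17 in unstimulated (17.6%, all genes 4.7%) and 5 of 17 in stimulated cells (29.4%, all genes 5.36%). Its medians were 0.07 and 0.12, with 15 and 16 members above zero. Its median counting error (0.034 and 0.036) was smaller than that of complex I (0.051 and 0.054), so smaller ratios could be called in it. Those of complexes III (0.039 and 0.037) and IV (0.038 and 0.039) were closer to it. Atp5e, the epsilon subunit of the F1 part (chromosome 2, 174461072 to 174464105, GRCm38), was called in both states at 0.15 ± 0.03 and 0.21 ± 0.03. Atp5b, the catalytic beta subunit (chromosome 10, 128083273 to 128090391), was called in both at 0.06 ± 0.01 and 0.07 ± 0.01, a difference of 4.4% and 5.1% that was callable because its error was the smallest of all members. Atp5l, subunit g of the membrane part (chromosome 9, 44912557 to 44920742), was called in both at 0.17 ± 0.03 and 0.19 ± 0.03. Atp5d, the delta subunit of F1, was at 0.08 ± 0.02 and 0.12 ± 0.03, called in stimulated cells. Atp5a1, the alpha subunit that pairs with beta in the F1 ring, was at 0.00 ± 0.02 and −0.01 ± 0.02, so the 2 chains of the ring differed by more than their counting errors. The proton-carrying c subunit is made from 3 genes with a common mature protein. Of these Atp5g2 (0.11 ± 0.03 and 0.16 ± 0.03) was called in stimulated cells, while Atp5g1 (0.06 ± 0.04 and 0.13 ± 0.05) and Atp5g3 (−0.01 ± 0.03 and 0.04 ± 0.04) were not. Atp5j, coupling factor 6 of the stalk, was the lowest of the complex in unstimulated cells (−0.05 ± 0.04) and lay at 0.15 ± 0.05 in stimulated cells. Atp5s and Atp5sl carry the symbol but are not counted as subunits; they were at 0.17 ± 0.18 and 0.07 ± 0.07 in unstimulated and at 0.13 ± 0.20 and 0.13 ± 0.07 in stimulated cells.

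The adjusted p-values (Benjamini-Hochberg, from the authors' deposited p) of the 4 members called in both states were, in unstimulated and then stimulated cells, 3.04e-06 and 3.08e-08 for Atp5b, 4.61e-05 and 3.97e-09 for Atp5e, 1.36e-07 and 4.97e-08 for Atp5l, and 0.000469 and 0.000133 for Cox6a1. The smallest of any member was that of Cox8a in unstimulated cells, 6.83e-12, beside 0.841 in stimulated cells.

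Set side by side, the complexes overlapped widely, and their order depended on the summary. In unstimulated cells the medians ran from 0.01 (complex II) through 0.02 (III and IV) to 0.06 (I) and 0.07 (V), but the median of complex IV was 0.07 over its precisely counted members and 0.07 without its isoforms, level with complex V. In stimulated cells the medians ran from 0.01 (II) through 0.10 (III, I and IV) to 0.12 (V). Means weighted by counting error put complex IV highest in unstimulated cells, at 0.07 ± 0.009, followed by V (0.06 ± 0.007), I (0.04 ± 0.008), III (0.03 ± 0.013) and II (0.01 ± 0.021). In stimulated cells they put complex III at 0.10 ± 0.013, I at 0.09 ± 0.009, IV at 0.09 ± 0.010, V at 0.08 ± 0.007 and II at 0.02 ± 0.022, so complex V, highest by median, was lowest of the larger complexes by weighted mean. Atp5b (0.07 ± 0.012) and Atp5a1 (−0.01 ± 0.015), with the smallest errors of complex V, weigh most in that mean. The errors of these weighted means combine only the counting errors of the members and leave out the spread of ratios between them. Complex II rests on 2 genes. Among the 74 precisely counted members, the SD of the ratios was 0.07 in each state, and the root mean square of their counting errors was 0.05 in unstimulated and 0.06 in stimulated cells. Subunits of a complex share libraries and are not replicates, and no test of the differences between complexes was made.

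The 2 states rest on separate libraries. Of the 78 members in both tables, 56 were above zero in both, 2 below zero in both, 15 below in unstimulated and above in stimulated cells, and 5 the reverse. Called higher in both were 4 (5.13%), Atp5b, Atp5e, Atp5l and Cox6a1, where 2.96% of all 14823 shared genes were. In total 13 members were called in at least 1 state, 2 of them (Cox8a and Ndufb8) in unstimulated cells alone and 7 (Atp5d, Atp5g2, Cox6c, Ndufa12, Ndufa2, Uqcr10 and Uqcrq) in stimulated cells alone. Whether a call in 1 state marks a difference between states was not tested, as each group has 1 library. Over the 74 precisely counted members Pearson's r between the states was 0.24 and Spearman's rho 0.28. These points share the 4 libraries.

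The ratio was larger in stimulated cells for 57 of the 78 members, with a median difference of 0.05 on the log2 scale, against 0.00 over all shared genes. This count rests on the centring. On the centred scale the other precisely counted genes of the shortest length class also had a higher median in stimulated (0.07) than in unstimulated cells (0.04). The part of transcript length in this count was not tested. The deposited scale appears not to be adjusted for library depth. On that scale the median difference was −0.18 for members and −0.23 for all shared genes. There the ratio was larger in stimulated cells for 5 of the 78 members (14.1% of all shared genes). On the centred scale it was larger by over 2 counting errors for 8 members (10.3%; all genes 8.57%), which were Uqcr10 (by 0.21 ± 0.06), Atp5j (0.20 ± 0.06), Ndufa12 (0.28 ± 0.09), Ndufb6 (0.32 ± 0.11), Uqcrfs1, Cox7a2l, Cox6b1 and Ndufa1 (0.18 ± 0.08). It was smaller by over 2 counting errors for 1 member (1.28%; all genes 9.16%), Cox8a (−0.15 ± 0.03). The plot of both states shows Cox8a far below the line of equal ratios.

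**Figure D3:**
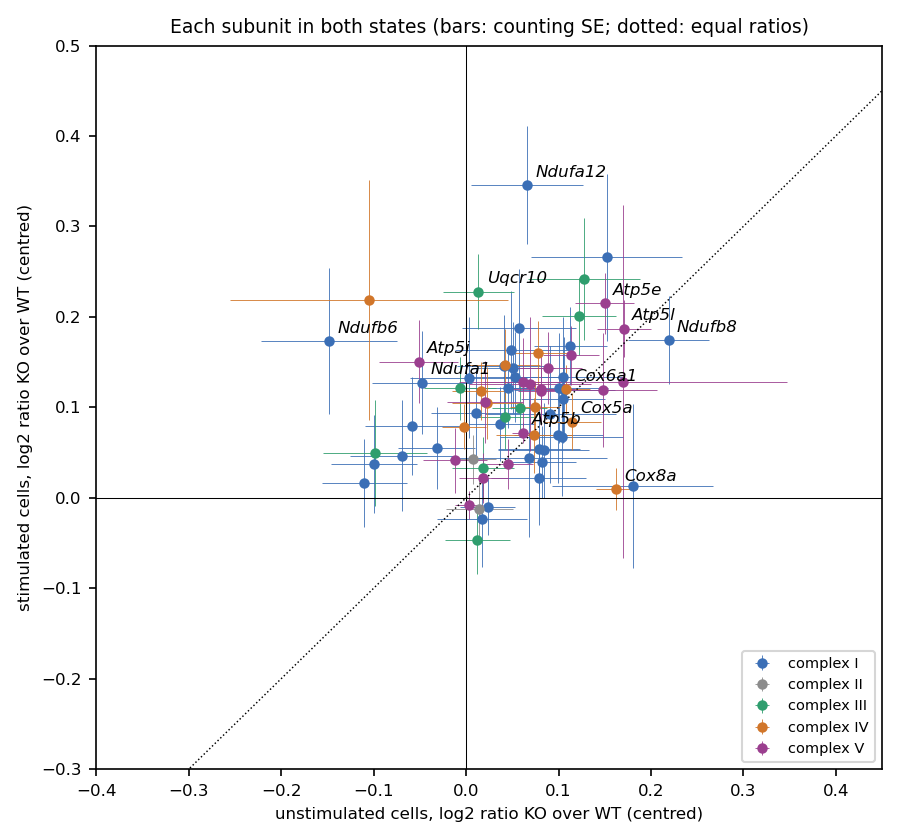
Log2 ratio of KO over WT in unstimulated (x axis) and stimulated cells (y axis) for the 74 precisely counted subunits, coloured by complex, with counting SE bars and a dotted line of equal ratios. On this centred scale more points lie above the line than below it (54 of 74 have the larger ratio in stimulated cells), with Ndufa12 highest and Cox8a near 0.01 on the y axis.

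The shares of all genes called higher, 4.7% in unstimulated and 5.36% in stimulated cells, stand beside each count of the related groups that follow. Of the 7 remaining nuclear genes of the chain, 0 were called in unstimulated cells and Sdhb alone in stimulated cells, with medians of 0.05 and 0.11. Cycs, cytochrome c, was at 0.05 ± 0.04 in both states; Ndufab1, the acyl carrier protein of complex I, at 0.09 ± 0.06 and 0.08 ± 0.06; and the ATP synthase-associated genes Usmg5 at 0.10 ± 0.04 and 0.13 ± 0.04, 2010107E04Rik at 0.03 ± 0.07 and 0.14 ± 0.07, and the inhibitor Atpif1 at 0.06 ± 0.05 and 0.11 ± 0.05. Of 46 assembly factors, 1 was called higher in each state, Sdhaf2 for complex II in unstimulated cells (0.15 ± 0.03) and Uqcc2 for complex III in stimulated cells (0.28 ± 0.07), and 0 lower; the calls were 2.17% of the group in each state, below those shares. Of 7 carriers and channels of the inner and outer membrane, Ucp2 alone was called in unstimulated cells (0.11 ± 0.02) and 5 (71.4%) were called higher in stimulated cells, from the phosphate carrier Slc25a3 (0.09 ± 0.02) to Ucp2 (0.15 ± 0.03). Import genes had 1 of 23 called in unstimulated (4.35%) and 3 of 23 in stimulated cells (13.0%), all higher, with Timm13 at 0.20 ± 0.04 and 0.26 ± 0.04 and Timm23 at 0.13 ± 0.03 in stimulated cells.

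Mitochondrial ribosomal proteins had 1 of 77 called in unstimulated cells (1.3%; Mrpl12, 0.21 ± 0.05) and 7 in stimulated cells (9.09%), from Mrpl52 (0.24 ± 0.06) to Mrpl53 (0.46 ± 0.08), all higher, with medians of 0.05 and 0.09. The 15 TCA cycle enzymes, 2 of them also in complex II, had medians of 0.01 and 0.04. The 13 genes of coenzyme Q synthesis had none called and medians of 0.01 in both states. Of 17 regulators of mitochondrial biogenesis, 11 lay below zero in unstimulated and 14 in stimulated cells (medians −0.03 and −0.06, the first above zero on the deposited scale). Called lower was 1 regulator in each state (5.88%), where 4.27% of all genes were in unstimulated and 6.54% in stimulated cells. These were Yy1 in unstimulated cells (−0.20 ± 0.03, with 0.11 ± 0.04 and no call in stimulated cells) and Gabpb2, a GABP subunit, in stimulated cells (−0.25 ± 0.04). Cytosolic ribosomal proteins, likewise short and abundant, had far more calls than the respiratory chain, 53 of 79 in unstimulated cells (from Rplp0 at 0.05 ± 0.01 to Rplp2 at 0.45 ± 0.09) and 66 of 79 in stimulated cells (from Rpl10 at 0.07 ± 0.01 to Rps14 at 0.28 ± 0.02), all higher, with medians of 0.11 and 0.14. Their median counting error (0.018 and 0.020) was smaller than that of the subunits (0.043 and 0.048), so smaller ratios pass the threshold among them.

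**Figure D4:**
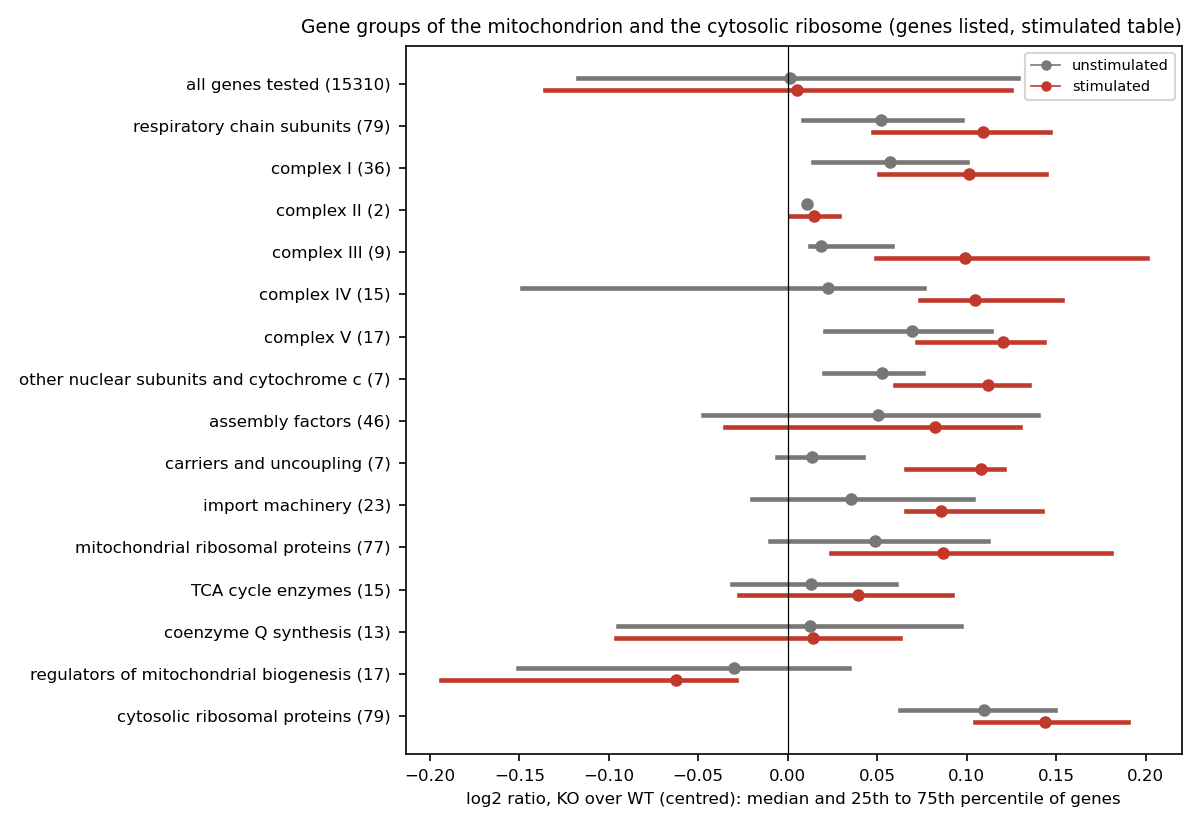
Median (point) and 25th to 75th percentile (bar) of the log2 ratio of KO over WT for each gene group, unstimulated in grey and stimulated in red, with the number of genes in the stimulated table in brackets. The respiratory chain lies at 0.05 and 0.11, below the cytosolic ribosome at 0.11 and 0.14 and above the TCA cycle at 0.01 and 0.04.

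Activated cells make products that act on respiration. Of their genes, Nos2, the inducible nitric oxide synthase, was called lower in both states, at −0.26 in each, with its stored p-value at the limit in both. Irg1, which makes itaconate, an inhibitor of complex II, was called lower at −0.40 in unstimulated cells, with its p-value at the limit, and at −0.18 ± 0.01 in stimulated cells. AA467197, a paralog of Ndufa4 that can take its place in complex IV, was called higher at 0.22 ± 0.02 and 0.22 ± 0.01.

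Markers of other cells differed between the libraries as well. All 8 dendritic cell markers were precisely counted. Itgax was the highest, at 0.32 in unstimulated cells, where its p-value is at the limit, and 0.29 ± 0.02 in stimulated cells. The lowest were H2-Aa in unstimulated cells (−0.03 ± 0.01) and Zbtb46, a transcription factor of the dendritic lineage, in stimulated cells (−0.14 ± 0.07; −0.01 ± 0.07 unstimulated), neither called. Of these markers 5 of 8 were called higher in unstimulated and 4 of 8 in stimulated cells, with a median of 0.09 in both. Over all genes 4.7% were called higher and 4.27% lower in unstimulated cells, and 5.36% and 6.54% in stimulated cells. Macrophage markers had 4 of 7 called higher and 1 lower in each state, and fibroblast markers 3 of 8 higher in unstimulated and 4 higher and 1 lower in stimulated cells, with Col3a1 at 3.06 ± 0.58 and 6.27 ± 0.40 the highest. The tables hold ratios and no summed level of these markers, and their part in the ratios of the subunits was not tested. Of the 13 called members, 4 (Atp5d, Cox6c, Ndufa2 and Ndufb8) overlap another protein-coding gene in GENCODE M21 (30.8%), as do 24 of all 79 members (30.4%). The sources used here name neither the strand setting of the authors' counting nor how it treated reads shared with processed copies.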

How the data were processed

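RNA of 4 libraries, 1 per group, was sequenced after a strand-specific TruSeq mRNA preparation, per the labels' protocols. FastQC 0.10.1, HTSeq 0.6.0 and build mm10 are named per the submitters' processing notes; the sources used here name no aligner, annotation, scaling or test. The authors deposited 2 tables of KO over WT with a log2 fold change per gene and a p-value, stored as −log10 p and limited at 100 or 150; no member was at the limit, and a gene there has no counting SE. Depth per library is unknown.

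The log2 ratio of the gene with the highest deposited p (0.191 unstimulated, −0.036 stimulated) was subtracted from every gene. The counting SE is this centred ratio over the normal deviate of the two-sided deposited p. P-values were adjusted by Benjamini-Hochberg over all 15394 and 15310 genes. Precisely counted means an SE of at most 0.289, which 50 reads per library give. Transcript length is the median over protein-coding transcripts of the GENCODE M21 basic set (GRCm38, the assembly of mm10). Samples were grouped by title, and no test between groups was possible with 1 library each. Splits by length, motif, weighted mean and difference over 2 counting errors were added after the data were seen. The comparison of states on other zero points was also added after the data were seen. Alternatives were other zero points, thresholds and sets of members. The members and lists were chosen with earlier results of these data known. Named members are Ndufa1, Cox5a, those called, the extremes of each complex, those at 1.5-fold and the isoforms; core subunits and pairs were added after their values were seen. Values of some single genes are not reported here. The procedure was tested on simulated data whose p-values came from the same normal formula that it inverts. The simulation therefore cannot show whether this formula fits the deposited p-values, whose test is not named. Python 3.11.15, numpy 2.4.6, pandas 2.3.3, scipy 1.17.1 and matplotlib 3.10.9 were used.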

Additional observations from a re-analysis of the deposited data

How the results depend on the processing

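With 1 library per group no library could be left out and no paired fit exists. Of 80 values recomputed for 18 counts and medians, 66 stayed within 1.5 times the count or within the median counting error, and 14 moved. Centring on the median gene moved none of the 18, but this is a weak check. The median gene (0.193 unstimulated, −0.031 stimulated) lies close to the zero point used (0.191 and −0.036). Calls come from the deposited p-values, which no zero point changes, so only their directions could differ. With the log2 ratios as deposited, the calls and their directions were the same, and the unstimulated medians became 0.24 for all members, 0.25 for complex I, 0.20 for II, 0.21 for III, 0.21 for IV and 0.26 for V, where the median of all genes was 0.19; the stimulated median of complex II became −0.02. The comparison of states turned on that scale, which appears not to be adjusted for library depth and was an alternative chosen after seeing the data. On it 5 members in place of 57 had the larger ratio in stimulated cells, and the median difference went from 0.05 to −0.18 (centred on the median gene, 55 members and 0.05). There 74 of 78 members lay above zero in unstimulated and 66 of 79 in stimulated cells, where 81.7% and 39.8% of all genes did. The unstimulated median of complex IV became 0.07 over the precisely counted members (0.0737) and 0.07 without isoforms (0.0741). At an adjusted p under 0.05 the members called higher numbered 12 and 31, and with a 1.5-fold minimum 0 in both states. No paired analysis was possible because each group has 1 library. The depth behind the ratios is unknown; the median counting error of the members, 0.043 unstimulated and 0.048 stimulated, limits what could be called.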
